A study of Mus musculus with 16 samples.

Results

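The clustered histone genes encode the linker histone H1 and the core histones H2A, H2B, H3 and H4, and they lie in groups on mouse chromosomes 13, 3, 11 and 6. They were taken here as every row of the deposited tables whose symbol starts with Hist1h, Hist2h, Hist3h or Hist4h and that held at least 10 counts in 2 or more libraries. This left 66 of the 24411 genes listed, of 68 that matched the symbol, with 6 H1, 17 H2A, 18 H2B, 12 H3 and 13 H4 genes. The Hist1 cluster on chromosome 13 holds 52 of them, the Hist2 cluster on chromosome 3 holds 10, the Hist3 cluster on chromosome 11 holds 3, and Hist4h4 lies alone on chromosome 6.

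RNA was sequenced from 16 mouse samples of a study of neuroblastoma driven by the human MYCN transgene in Th-MYCN mice, where the tyrosine hydroxylase promoter directs MYCN to the neural crest lineage. Celiac ganglia came from mice of 2 weeks of age in 4 genotypes. Without the transgene there were 4 ganglia with both Runx1t1 alleles (wild-type) and 3 with 1 inactivated Runx1t1 allele (het), and homozygous Th-MYCN mice gave 3 ganglia with both Runx1t1 alleles and 2 with 1. The last group was 4 tumors of homozygous Th-MYCN mice with both Runx1t1 alleles, and the labels do not give the age at which the tumors were taken. The Runx1t1 knockout is an insertion in the germ line, so each cell of a het animal carries it. The labels give the wild-type genotypes, and table columns were matched to these samples by reading the header code Hom for Runx1t1 as homozygous wild type. The Th-MYCN line is on the 129/SvJ background and the Runx1t1 line is named CBB6-Runx1t1tm1Fc/H, and these lines were crossed. Both sexes were used. All samples, ganglia included, carry the cell type label Neuroblastoma. Libraries held from 10692299 to 38618757 counts in all, and 58 to 65 of the 66 histone genes reached 10 counts in each of them.

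Most clustered histone genes are active in S phase, when new DNA has to be packed. Their mRNAs have no poly(A) tail in dividing cells and end instead after a short stem-loop, which is bound by the protein Slbp and formed with the help of the U7 RNA particle. A few of these genes, with Hist1h1c, Hist1h2bc and Hist2h2be among them, are also known as polyadenylated transcripts in cells that have left the cycle. The library kit is named for total RNA while the molecule label reads polyA RNA, and this matters here because a poly(A) selection would lose the stem-loop form.

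The stem-loop was looked for in the GENCODE vM21 transcripts as a 6-base stem, a 4-base loop and the matching 6 bases, and it was found after the stop codon of 44 of the 66 genes. For 52 of the genes the annotation held 20 or more bases after the stop codon, so part of the misses come from models that end at the stop. The element is shown for 1 gene of each type that the results turn on, with the stem and loop in capitals and 5 flanking bases on each side.
Hist1h1e: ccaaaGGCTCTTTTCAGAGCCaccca
Hist2h2aa1: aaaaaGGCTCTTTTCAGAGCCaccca
Hist1h2bm: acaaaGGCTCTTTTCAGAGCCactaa
Hist1h3b: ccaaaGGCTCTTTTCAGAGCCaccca
Hist1h4d: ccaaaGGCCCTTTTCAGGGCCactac
The capitals of the H1, H2A, H2B and H3 examples are the same, and the H4 example has another stem around the same loop. The core of the first 4 examples was found in 26 genes and that of Hist1h4d in 7. Of the genes that are also polyadenylated, Hist1h1c held the element and none was found in the annotated models of Hist1h2bc and Hist2h2be.

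Promoters from RefSeq (GRCm38.p6), from 250 bases before to 50 after the start, were matched to 59 of the 66 genes. A CCAAT box on either strand was present in 50 of them (84.7%), against 37.4% of all 32851 promoters, and it was in every matched H1, H2A, H2B and H3 promoter but in 3 of 12 H4 promoters. TATAAA was present in 33 (55.9%, against 13.6% of all), and the octamer ATTTGCAT in 11 (18.6%, against 1.74%), of which 6 were H2A and 5 were H2B genes. None of these motifs contains another. The 59 promoters are not all separate sequences, since those of some neighboring H2A and H2B genes on opposite strands overlap, such as Hist1h2ad and Hist1h2bf. A motif in the overlap is counted for both genes. Hist1h2ae and Hist1h2bg share 1 octamer in this way, and so do Hist1h2ah and Hist1h2bk. A match is a description of the letters and not of binding. The promoters of 4 genes described in the results are shown with the motifs in capitals on the gene's strand, where ATTGG is CCAAT read on the other strand.
Hist1h1e promoter, chr13:23622509-23622808, minus strand: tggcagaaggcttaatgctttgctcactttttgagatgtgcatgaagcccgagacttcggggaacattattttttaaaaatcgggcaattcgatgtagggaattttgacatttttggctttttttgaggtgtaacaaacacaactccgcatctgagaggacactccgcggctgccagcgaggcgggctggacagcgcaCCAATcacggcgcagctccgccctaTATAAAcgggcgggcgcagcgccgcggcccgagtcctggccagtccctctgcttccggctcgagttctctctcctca
Hist1h2bm promoter, chr13:21721794-21722093, plus strand: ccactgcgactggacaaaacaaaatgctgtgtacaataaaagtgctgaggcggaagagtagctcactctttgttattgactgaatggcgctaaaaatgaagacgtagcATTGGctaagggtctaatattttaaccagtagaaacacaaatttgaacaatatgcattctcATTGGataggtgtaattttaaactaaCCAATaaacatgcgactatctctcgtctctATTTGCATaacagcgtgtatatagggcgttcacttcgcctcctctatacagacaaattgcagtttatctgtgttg
Hist1h3b promoter, chr13:23752095-23752394, plus strand: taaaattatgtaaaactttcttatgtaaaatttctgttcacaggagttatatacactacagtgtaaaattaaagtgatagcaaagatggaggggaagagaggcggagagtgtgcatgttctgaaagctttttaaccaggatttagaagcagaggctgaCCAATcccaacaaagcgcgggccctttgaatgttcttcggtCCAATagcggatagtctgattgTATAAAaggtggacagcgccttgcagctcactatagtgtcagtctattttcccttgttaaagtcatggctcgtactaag
Hist1h4d promoter, chr13:23581318-23581617, plus strand: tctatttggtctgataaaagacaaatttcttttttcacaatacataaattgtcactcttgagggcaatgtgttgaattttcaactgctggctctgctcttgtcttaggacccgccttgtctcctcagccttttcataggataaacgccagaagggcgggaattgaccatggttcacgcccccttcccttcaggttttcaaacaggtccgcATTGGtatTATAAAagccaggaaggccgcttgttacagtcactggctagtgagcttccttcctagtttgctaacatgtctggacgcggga

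Before the comparisons, the libraries were checked against markers of the cells they should hold. The summed level of 8 sympathetic neuron genes was 2936 to 7711 CPM (counts scaled to library size with TMM factors) in the 12 ganglia and 1318 to 2036 CPM in the tumors, and that of 5 glial genes was 280 to 1122 CPM in ganglia and 9.21 to 17.9 CPM in tumors. Wild-type replicate 2 without the transgene stood apart, since 7 lymphocyte and thymocyte genes summed to 884 CPM there and to at most 67.3 CPM in any other library. Of these genes, Ptprc was 551, Cd4 134, Cd79a 110, Cd8a 46.1 and Cd3e 41.9 CPM there. Rag1, at 3.53 to 15.6 CPM in tumors, was only 0.0867 CPM in this library, and Dntt was 1.3 CPM. Its Mki67, a marker of cycling cells, was 368 CPM against 28.5 to 64.5 CPM in the other 6 transgene-free ganglia, so the count or median of the members in each comparison is also given without it. Its neuron sum was the lowest of the ganglia, at 2936 CPM, and 3 macrophage and 3 endothelial genes summed to 224 and 673 CPM there, against 14.1 to 43.3 and 56.2 to 319 CPM in the other 6 transgene-free ganglia. Tumor replicate 3 held liver genes, with Alb at 2512 CPM. The part of these cells in the histone values was not tested. In bulk RNA, fewer cells of a type and less RNA per cell cannot be told apart.

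In all, 6 of the libraries were under 20000000 counts and 10 were over it. The under class held replicates 1 and 2 of the transgene-free wild-type ganglia, replicate 1 of the transgene-free het ganglia, replicate 1 of the MYCN wild-type ganglia and both MYCN het ganglia, and all tumors were over. The class entered the model as a term, and each comparison was repeated within a class where a class held samples of both groups. For the MYCN het ganglia no library over 20000000 counts exists, so their adjustment was borrowed from the other groups.

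The targeted gene was read first. Runx1t1 was 8.47, 10.8, 13.1 and 12.2 CPM in the transgene-free wild-type ganglia and 13.3, 13.1 and 18.2 CPM in the transgene-free het ganglia, so the libraries labelled het were not lower (log2 fold change 0.46 ± 0.53 SE, adjusted p = 1.0 by edgeR). With the transgene it was 243, 23.4 and 111 CPM in wild-type and 25.3 and 49.9 CPM in het ganglia (log2 fold change -1.89 ± 0.69 SE, adjusted p = 0.205). A count over the whole gene does not tell whether an inactivated allele still gives reads, so this does not check the genotype.

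A few genes gave much of the histone RNA in the transgene-free ganglia. By TPM, the RSEM unit that allows genes to be compared per length, Hist1h4d had the highest mean at 1033 TPM, followed by Hist2h2aa1 at 968, Hist1h1c at 761, Hist1h1e at 477 and Hist1h4h at 452 TPM. Hist1h4d ranged from 757 to 1967 TPM and Hist2h2aa1 from 640 to 2287 TPM over these 7 libraries, so the first places do not differ beyond their spread. The 5 genes with the most counts in a library gave 33.2 to 51.1% of the histone counts in the transgene-free ganglia and 25.7 to 29.6% in the tumors. In the tumors Hist2h2aa1 led with a mean of 5100 TPM, then Hist1h4d at 4036, the H3 gene Hist1h3b at 3045 and the H2B gene Hist2h2bb at 3008 TPM. Hist1h1c, Hist2h2aa1 and Hist1h4d lie at chr13:23738808-23740367, chr3:96245497-96246082 and chr13:23581598-23582735 of GRCm38, all as protein-coding genes on the plus strand.

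Sharing of reads limits single genes. In 24 of the 66 genes, 50% or more of the 100-base stretches of the annotated transcripts also occur in another clustered histone gene, and RSEM divides such reads by its model. Hist1h2bq and Hist1h2br had equal values in every library. Hist2h2aa2, whose stretches all occur elsewhere (100%), and Hist2h3c1 were at 0 in most libraries and at up to 4.08 and 11.4 CPM in others of the same group. Counts summed over a type do not depend on how reads were split within it. Sums of TPM can depend on it, because genes of a type differ in length, such as Hist1h2ac at 2482 and Hist1h2ab at 473 bases.

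The histone genes together took 0.0926, 0.429, 0.108 and 0.0862% of the counts in transgene-free wild-type replicates 1 to 4 and 0.0932, 0.0755 and 0.0909% in transgene-free het replicates 1, 3 and 4. They took 0.0880 and 0.253% in the MYCN het ganglia, 1.12, 0.122 and 0.525% in MYCN wild-type replicates 1, 3 and 4, and 1.38, 1.49, 1.06 and 1.12% in the tumors. Replicate 2 with the lymphocyte genes was the one transgene-free library above 0.11%, the MYCN wild-type ganglia ranged from near the transgene-free level to the tumor level, and no transgene-free ganglion reached a tumor. Tumors averaged 1.26% ± 0.209 (SD, n = 4). Ganglia without the transgene averaged 0.139% ± 0.128 (SD, n = 7), which gives a ratio of 9.07. Without replicate 2 the ganglia averaged 0.0911% ± 0.0107 (SD, n = 6) and the ratio was 13.9, and against the 4 transgene-free ganglia over 20000000 counts it was 14.0. By type, this last ratio was 27.3 for H3, 18.2 for H2B, 16.8 for H2A, 10.2 for H1 and 9.36 for H4.

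**Figure D1:**
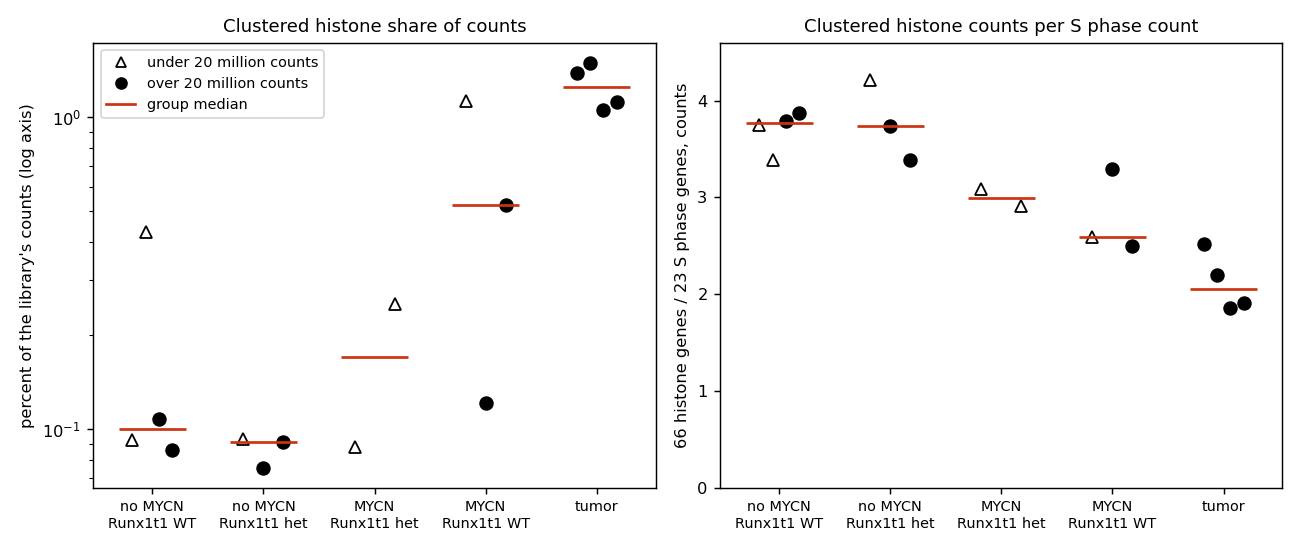
Left, the percent of each library's counts that fell on the 66 clustered histone genes, on a log axis; right, these counts divided by those of 23 S phase genes, on a linear axis. Points are libraries by group, with open triangles under and filled circles over 20000000 counts and a red line at the group median. The tumors lie at 1.06 to 1.49% on the left and at 1.86 to 2.52 on the right, where the transgene-free ganglia lie at 3.39 to 4.21.

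The first comparison asked how tumors differ from ganglia without the transgene. All types rose: 62 of the 65 members that passed the filter on low counts were higher in tumors and none was lower, where 30.7% of the 16665 genes tested were higher and 30.1% lower. The member that did not pass the filter was the testis H1 gene Hist1h1t, at 0 to 0.52 CPM. The median log2 fold change of the members was 4.45, against -0.01 over all genes tested. Every tumor lay above every transgene-free ganglion for 62 members, as it did for 22.7% of all genes. The counts were 5 of 5 for H1, 16 of 17 for H2A, 17 of 18 for H2B, 11 of 12 for H3 and 13 of 13 for H4, with median log2 fold changes of 4.24, 4.96, 4.32, 5.03 and 3.47. Without wild-type replicate 2, and among the libraries over 20000000 counts alone, 62 members were again higher, with medians of 4.56 and 4.45.

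Among the H1 genes, which bind the linker DNA between nucleosomes, the 3 with the highest TPM differed in size of change. Hist1h1d was 668, 740, 568 and 649 CPM in the tumors and 23.7 to 216 CPM, with a median of 32.8, in the transgene-free ganglia. Its highest ganglion was replicate 2 of the wild types, and the others ended at 41.9 CPM. The fitted fold was 18.9 (log2 4.24 ± 0.62 SE, adjusted p = 6.27e-05 by edgeR's quasi-likelihood test with Benjamini-Hochberg adjustment, as in all that follow). Without replicate 2 the log2 fold changes of the 21 named members moved by -0.02 to 0.44. Hist1h1e, at 959, 969, 652 and 790 CPM in tumors and 92.9 to 200 CPM in the ganglia, rose 9.19-fold (adjusted p = 6.58e-06). Hist1h1c was 893, 741, 531 and 568 CPM in tumors and 114 to 405 CPM in the ganglia. It rose 5.72-fold (adjusted p = 5.38e-05), the least of the H1 genes tested.

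The H2A and H2B genes pair in the nucleosome and held the members with the largest folds. Hist2h2aa1 was 1172, 1193, 716 and 1021 CPM in tumors, and 92.6 to 344 CPM with a median of 107 in transgene-free ganglia. It rose 10.7-fold (adjusted p = 1.99e-05), and 88.1% of its stretches are shared with other histone genes. Hist1h2ai and Hist1h2ap, at 217 to 474 and 188 to 367 CPM in tumors, rose 29.3-fold and 36.9-fold (adjusted p = 0.000118 and 0.000107). Hist2h2bb, a gene with no shared stretch, was 524, 529, 362 and 571 CPM in tumors against 23.1 to 89.2 CPM in ganglia and rose 19.2-fold (adjusted p = 1.24e-05). Hist1h2bk rose 37.4-fold (adjusted p = 3.29e-05) from a median of 11.5 CPM.

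A pair of H2B genes of the Hist1 cluster had the largest folds of all members whose groups did not overlap. Hist1h2bm was 178, 149, 113 and 108 CPM in tumors and 1.52, 0.952, 1.39, 0.721, 1.6 and 2.81 CPM in 6 transgene-free ganglia, with 21.2 CPM in wild-type replicate 2. That is low in every ganglion but the one with lymphocyte genes, and the fold was 85.2 (log2 6.41 ± 0.89 SE, adjusted p = 4.26e-05). Hist1h2bn was 294, 160, 118 and 120 CPM in tumors and 0.4 to 5.04 CPM in the ganglia, with 37.5 CPM in that library. Its fold was 101 (log2 6.65 ± 1.23 SE, adjusted p = 0.000407), and 52.1% of its stretches are shared. The H2A gene Hist1h2an, also of the Hist1 cluster, at chr13:21786826-21787218 on the minus strand, was 113, 122, 79.3 and 74.4 CPM in tumors and 0.295 to 11.2 CPM in ganglia.

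H3 and H4 form the inner tetramer of the nucleosome. Hist1h3b was 490, 530, 376 and 394 CPM in tumors and 4.62 to 75.4 CPM, with a median of 9.05, in transgene-free ganglia, where only wild-type replicate 2 was above 12.7 CPM. It rose 53.9-fold (log2 5.75 ± 0.72 SE, adjusted p = 2e-05). Hist1h3d rose 40.3-fold and Hist1h3e 17.8-fold (adjusted p = 2.06e-05 and 1.51e-05). The H4 gene Hist1h4d was 398, 452, 305 and 376 CPM in tumors and 51.7, 58.9, 55.4, 56.1, 61.6 and 52.2 CPM in the 6 ganglia other than wild-type replicate 2, where it was 129 CPM. It rose 7.26-fold (log2 2.86 ± 0.34 SE, adjusted p = 1.28e-05). Hist1h4h and Hist1h4k rose 10.1-fold and 20.1-fold (adjusted p = 2.46e-05 and 9.58e-06).

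The other 3 members did not pass. Hist2h2be, an H2B gene known to be polyadenylated and to persist in non-dividing cells, was 3.69, 2.09, 1.64 and 3.17 CPM in tumors and 1.2 to 5.55 CPM in transgene-free ganglia, so the groups overlapped throughout (log2 fold change -0.05 ± 0.41 SE, adjusted p = 0.921). It lies at chr3:96221119-96223738, shares no stretch with another histone gene and was also at 2.82 to 5.5 CPM in all 5 MYCN ganglia. Hist2h2aa2 and Hist2h3c1 were the others (adjusted p = 0.282 and 0.417), and these are the genes with reads in scattered libraries. The polyadenylated members did not move as one, since Hist1h2bc rose 12.9-fold (229 to 313 CPM in tumors against 18 to 65.4 CPM in ganglia, adjusted p = 4.62e-06).

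Features that the choice of members did not use gave similar counts. Of 41 tested members with under 50% shared stretches 39 were higher in tumors, and of 24 with more 23 were, with median log2 fold changes of 4.18 and 4.85. Of 43 members with a stem-loop found 41 were higher (median 4.24), and of 22 without one 21 were (median 4.71). By cluster, 51 of 51 Hist1, 7 of 10 Hist2, 3 of 3 Hist3 genes and Hist4h4 were higher, the last from 12.3 to 54.6 CPM in ganglia to 77.6 to 127 CPM in tumors. Of the Hist3 genes, the pseudogene Hist3h2bb-ps met the count rule only through the tumors and MYCN wild-type ganglia. The share of the 3 polyadenylated genes in histone TPM was 7.3 to 10.7% in transgene-free ganglia and 4.83 to 5.59% in tumors.

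**Figure D2:**
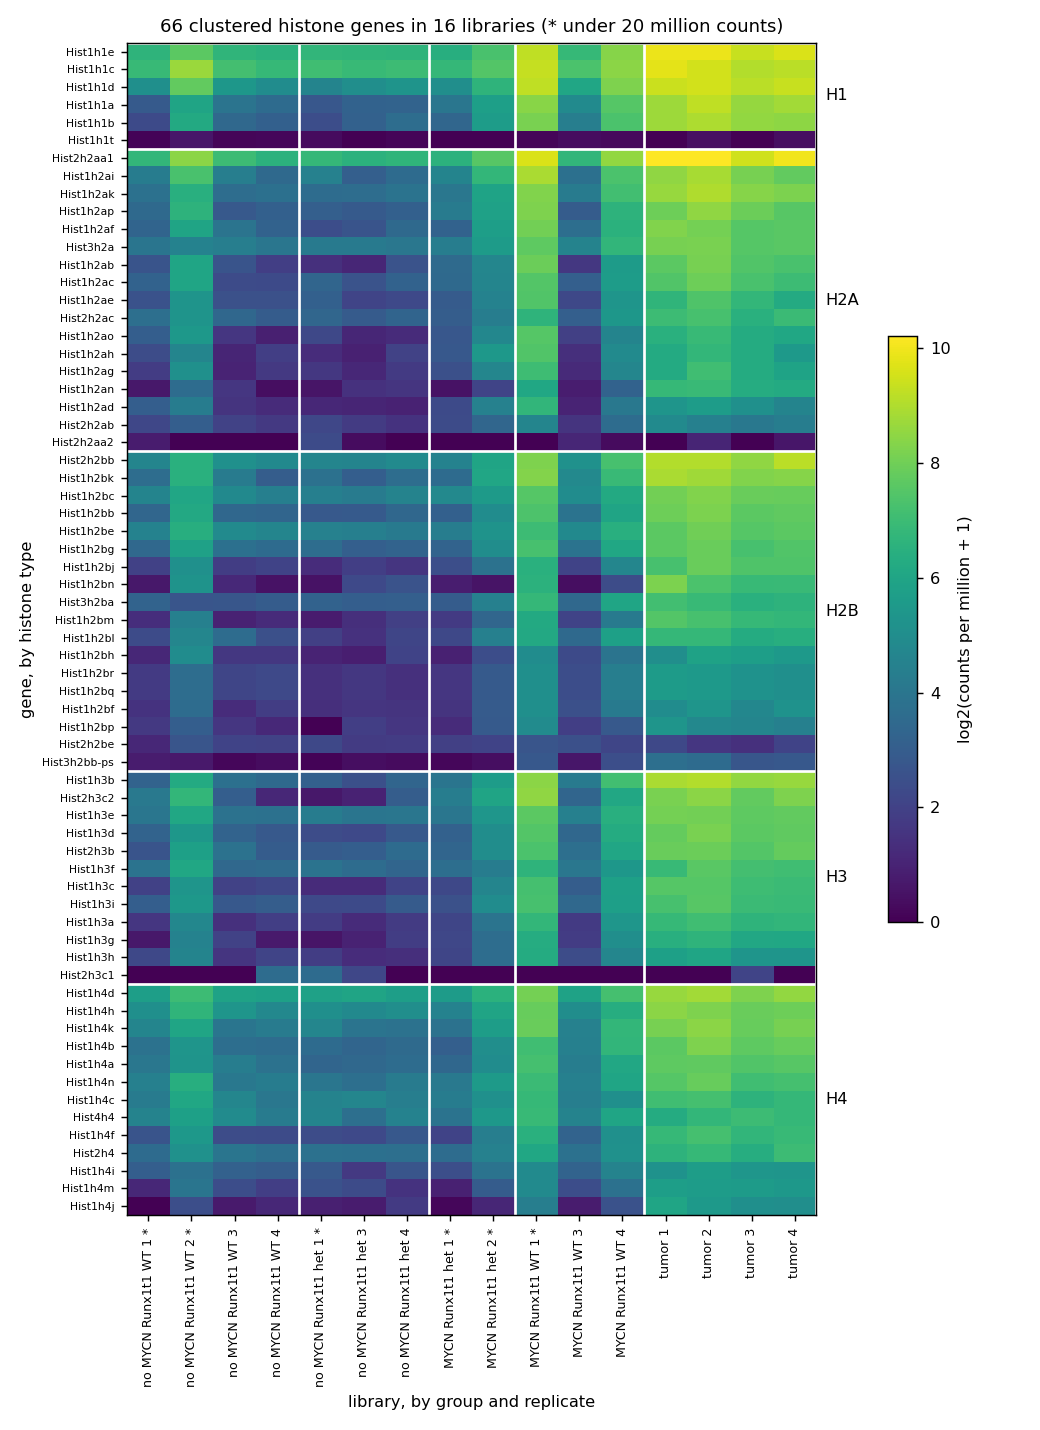
Each row is 1 of the 66 genes, ordered within its histone type by mean level, and each column a library; color gives log2(CPM + 1), and an asterisk marks libraries under 20000000 counts. The tumors and MYCN wild-type replicate 1 are bright across nearly all rows, and Hist2h2be, Hist2h2aa2, Hist2h3c1 and Hist1h1t stay dark in tumors.

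The makeup of the histone RNA also differed. Of the summed histone TPM, H4 genes gave 36.9 to 41.5% in the transgene-free ganglia other than wild-type replicate 2, which had 28.6%, and 23.6 to 26.1% in tumors. H3 genes gave 6.46 to 8.48% in those 6 ganglia, 13.1% in replicate 2 and 15.1 to 15.7% in tumors. H2B genes gave 13.4 to 17.8% in the 7 ganglia and 20.9 to 22.7% in tumors, and H1 genes gave 12.6 to 18.5% and 11.8 to 12.5%. The H1, H2B, H3 and H4 shares of the tumors lay outside the range of all 7 transgene-free ganglia, narrowly so for H1, whereas those of H2A, at 23.5 to 28.0% in tumors and 19.8 to 28.0% in ganglia, overlapped. These shares are of RNA, and TPM weighs short genes such as those for H4 more per read. They also depend on how RSEM divided shared reads between genes of unlike length.

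**Figure D3:**
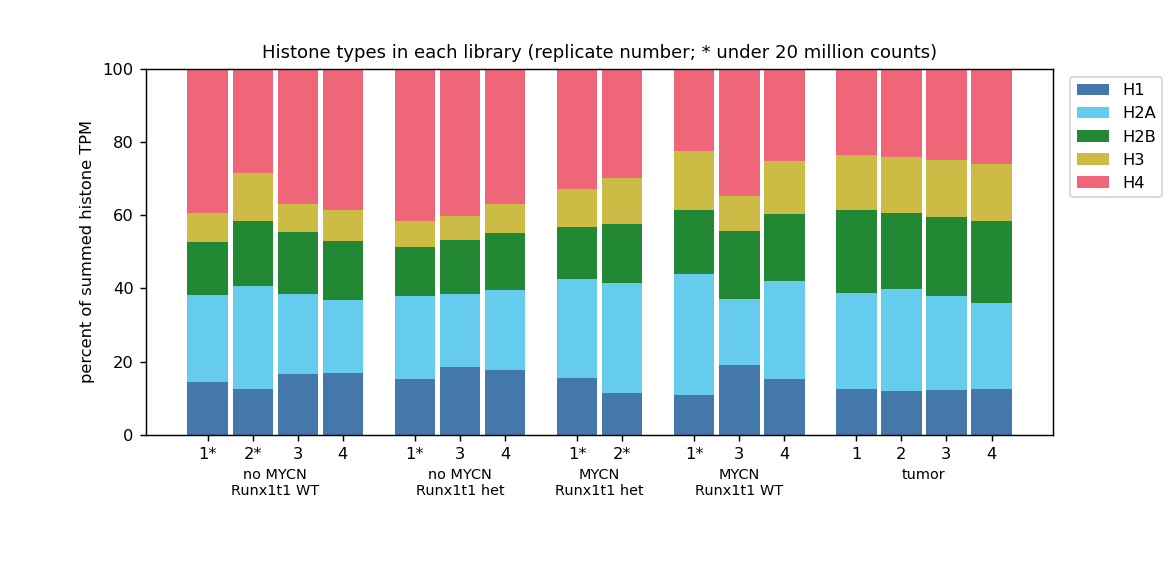
Stacked bars give the percent of the summed TPM of the 66 histone genes that each type contributed in each library, with replicate numbers on the axis and an asterisk for libraries under 20000000 counts. The H4 part is 23.6 to 26.1% in tumors and the H3 part 15.1 to 15.7%.

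The transgene in 2-week ganglia was compared next, within wild-type Runx1t1. The 3 MYCN ganglia were far apart. Replicate 1 was the highest of the 3 for 64 of 65 members (43.2% of all genes) and replicate 3 the lowest for 62 (39.7% of all genes). Replicate 1 lay above all 7 transgene-free ganglia for 61 members (28.7% of all genes), replicate 4 for 40 (18.2%) and replicate 3 for 2 (10.8%). Replicate 1 reached the lowest tumor or more for 36 members, and for 73.7% of all genes. Over replicates 1, 4 and 3 the histone share of counts fell, at 1.12, 0.525 and 0.122%. Several cell markers rose in that order, against the histone genes. Neuron sums were 3132, 3787 and 4704 CPM, glial sums 280, 590 and 1002 CPM and fibroblast sums 1498, 4487 and 5647 CPM. Macrophage sums fell with the histone genes, at 60.1, 46.4 and 26.8 CPM, and so did the lymphocyte and thymocyte sums. The part of these cells was not tested. The median log2 fold change over the members was 2.17, against -0.06 over all genes, and 64 of 65 were positive. Only 4 members passed the test, all higher, where 1.69% of all genes were higher and 0.156% lower, while 58 of 65 had an unadjusted p under 0.05 (3230 of 16665 genes) and DESeq2 called 43 (9.16% of all genes). Every MYCN ganglion lay above every transgene-free wild-type ganglion for 2 members, and for 4.72% of all genes.

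Of these 4, 3 were the members of the Hist3 cluster of chromosome 11, of which 1 is a pseudogene. Hist3h2a, an H2A gene at chr11:58954685-58956830, was 203, 22.7 and 106 CPM in the MYCN ganglia and 14.9, 22.1, 19.9 and 15.2 CPM in the controls (log2 fold change 2.56 ± 0.49 SE, adjusted p = 0.0385). Hist3h2ba, an H2B gene at chr11:58948920-58949533, was 111, 9.96 and 63.1 CPM against 8.63, 5.46, 5.64 and 6.91 CPM (3.15 ± 0.55 SE, adjusted p = 0.0375). These are the 2 members without overlap. The pseudogene Hist3h2bb-ps was 6.05, 0.534 and 4.52 CPM against 0.141 to 0.72 CPM (adjusted p = 0.0439), and the H4 gene Hist1h4b was 135, 21.1 and 104 CPM against 11.2 to 39.0 CPM (adjusted p = 0.0497). Both were named after their values were seen. Only 7 libraries held 10 counts of Hist3h2bb-ps, and these were the MYCN wild-type ganglia and the tumors. It thus became a member through groups where it is high, so its calls say nothing on the cluster.

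The Hist3 genes differed from most members in wild-type replicate 2. That library was above the other 6 transgene-free ganglia for 61 of 65 members (32.5% of all genes), and Hist3h2ba and Hist3h2bb-ps were among the 4 exceptions. Hist3h2ba was 5.46 CPM there, the lowest of the 7, and rose 18.1-fold in tumors (88 to 138 CPM, adjusted p = 1.22e-05). Hist3h2a, at 22.1 CPM there, was little above the 19.9 CPM of replicate 3 and rose 15.9-fold in tumors (186 to 286 CPM, adjusted p = 8.57e-06). This was noticed after the values were seen, and it has no test.

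The calls of this comparison rest on single libraries. Without wild-type replicate 2 of the controls no member and no other gene passed (0 of all genes), although the members' median rose to 3.01, and without MYCN wild-type replicate 3, 48 members and 1829 of all genes passed. Leaving out MYCN wild-type replicate 1 or 4, each of the other controls, transgene-free het replicate 3 or 4, or tumor replicate 2, 3 or 4 also left 0 members, with 0 to 4 of all genes past the threshold, and without tumor replicate 1 there were 2. Within the libraries over 20000000 counts (2 against 2) and under it (1 against 2) the medians were 2.09 and 2.38 with 0 members and 0 of all genes past the threshold in each.

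Tumors were then compared with the MYCN wild-type ganglia, which carry the same transgene and Runx1t1 alleles. The comparison shares the tumors with the first one. Of 65 members 32 were higher and none lower, where 17.6% of all genes were higher and 20.9% lower, and the median was 1.97, against 0.02 over all genes. H4 had the most calls for its size, with 12 of 13, and the others had 2 of 5 H1, 5 of 17 H2A, 9 of 18 H2B and 4 of 12 H3 genes. Every tumor lay above every MYCN wild-type ganglion for 29 members, and for 18.7% of all genes. Hist1h2bn was 94.6, 0.305 and 4.21 CPM in the MYCN ganglia and at least 118 CPM in each tumor (48.1-fold, adjusted p = 0.0208), and Hist1h2an was 66.9, 0.763 and 8.34 CPM there (12.6-fold, adjusted p = 0.0478). Of the widely expressed members, Hist1h4d at 269, 59.0 and 146 CPM in the MYCN ganglia was 3.11-fold higher in tumors (adjusted p = 0.00829), Hist1h1e was 3.12-fold higher (adjusted p = 0.00847) and Hist1h2bc 3.93-fold higher (adjusted p = 0.00505). With only the tumors and MYCN wild-type ganglia in the fit 0 members passed by edgeR (27.7% of all genes), and with the replicate number as a block 12 did (30.6%). Without the library class in the model 5 members passed (34.5%), and among libraries over 20000000 counts alone 48 did (43.1%). The count fell to 5 without MYCN wild-type replicate 3, to 21 without replicate 4 and to 19 without tumor replicate 2, and it was 25, with a median of 1.71, without the transgene-free wild-type replicate 2. The share of all genes called also moved between settings, from 27.7 to 43.1% in those above. Changes in the member count are therefore not read as particular to the histone genes.

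The MYCN het ganglia addressed whether 1 Runx1t1 allele changes the response to MYCN. Their 2 libraries differed, with replicate 2 above replicate 1 for 62 of 65 members (49.2% of all genes). Hist1h3b was 14.7 and 48.7 CPM in them, against 346, 17.1 and 138 CPM in the MYCN wild-type ganglia, and Hist1h1d was 32.5 and 100 CPM against 607, 64.8 and 303 CPM. Replicate 2 was above MYCN wild-type replicate 3 for 61 members (50.5% of all genes), so the genotypes overlapped. No member passed between them, nor did any of all genes (0.0%), with edgeR, while 57 of 65 members and 2865 of 16665 genes had an unadjusted p under 0.05 and DESeq2 called 35 members lower (4.88% of all genes in either direction). The median log2 difference, het minus wild-type, was -2.62 and 64 of 65 values were negative. This median was -2.32 without transgene-free wild-type replicate 2 and -3.00 within the libraries under 20000000 counts (2 het, 1 wild-type). Both het libraries are under 20000000 counts, so the difference depends on the class term. Over all runs the median went from -3.97 to -1.99. Without MYCN wild-type replicate 3, 22 members were lower in het (4.63% of all genes were called). The interaction of transgene and Runx1t1 allele number asks whether the transgene's effect differs by genotype. It had 0 calls among the members and among all genes (0.0%) by edgeR, and 0 among the members by DESeq2. For it, 13 members had an unadjusted p under 0.05 (1208 of 16665 genes). Its median was -1.84 (-0.02 over all genes, and -2.03 for the members without transgene-free wild-type replicate 2). Over all runs the members' median of the interaction went from -2.99 to -0.66.

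Tumors against the MYCN het ganglia gave 62 of 65 members higher and none lower, where 22.5% of all genes were higher and 21.3% lower. The median was 4.64, against 0.11 over all genes. Hist1h1d, at 568 to 740 CPM in tumors, was 23.2-fold higher (adjusted p = 0.00412). As both het libraries are under 20000000 counts, the class term carries part of this: without it 48 members passed and the median was 3.24, and without MYCN het replicate 1 the count was 42. Without transgene-free wild-type replicate 2, 59 members passed with a median of 4.01. The share of all genes called is not set beside these counts, so they do not tell histone genes from others.

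**Figure D4:**
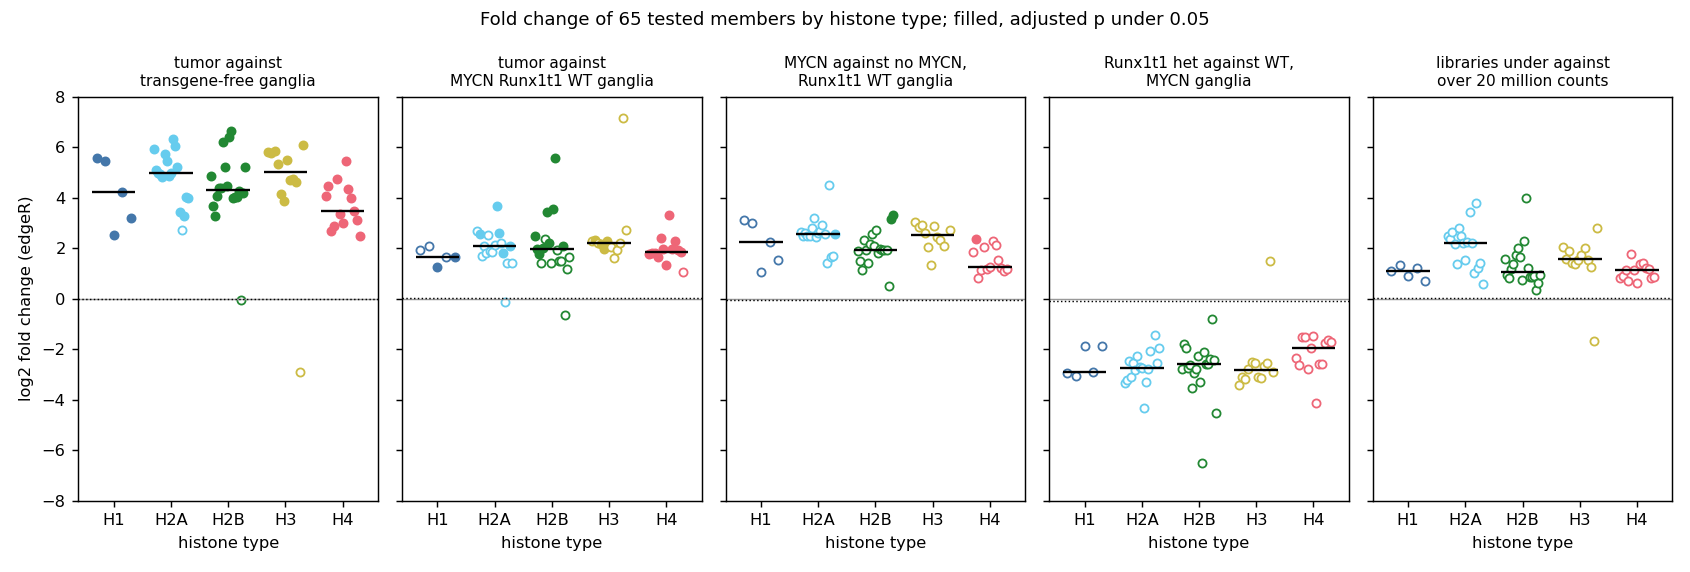
Each point is a member's log2 fold change in 1 comparison, by histone type, filled where the adjusted p was under 0.05; solid lines are medians by type and the dotted line is the median of all genes tested. Nearly all points are filled and above 0 for tumors against transgene-free ganglia, and none is filled for the Runx1t1 alleles or the library class. Hist2h3c1 in the panel on the transgene (-9.05) and Hist2h2aa2 in that on the Runx1t1 alleles (-10.26) lie outside the axis.

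Without the transgene, 1 inactivated Runx1t1 allele gave no call among the members or among all genes (0.0%) with edgeR, and 0 members with DESeq2. A single member of 65 (1) and 237 genes had an unadjusted p under 0.05. The median log2 difference, het minus wild-type, was -0.70, and it was -0.17 without wild-type replicate 2, -0.15 within the libraries over 20000000 counts and -2.05 within those under it, where the wild types are replicates 1 and 2. Every het library lay below every wild-type library for 9 of 65 members, and for 1.45% of all genes. Hist1h3b was 8.47, 75.4, 12.7 and 10.1 CPM in wild-type and 7.69, 4.62 and 9.05 CPM in het ganglia, so the wild-type mean rests on replicate 2.

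The library class was examined in its own right. Libraries under 20000000 counts had higher fitted values for 64 of 65 members, with a median log2 difference of 1.38, against 0.03 over all genes, and 40 members had an unadjusted p under 0.05 (1631 of 16665 genes). None passed by edgeR, where 0.258% of all genes did, and DESeq2 called 9 (1.80% of all genes). H2A genes had the largest median, at 2.20, against 1.10 for H1, 1.07 for H2B, 1.55 for H3 and 1.12 for H4. The value depends on few libraries: without transgene-free wild-type replicate 2, which is in the under class, the median was 0.77, without MYCN wild-type replicate 1 or 3 it was 1.06 or 1.04, and within the transgene-free ganglia alone it was 1.06.

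In the 6 transgene-free ganglia other than that library, the total share hardly differed by class, at 0.0926 and 0.0932% under and 0.0755 to 0.108% over 20000000 counts. There, 13 of 65 members did not overlap between the classes, as was the case for 18.8% of all genes. Of these, 9 were higher in the under class, such as Hist1h2ao, at 7.36 and 3.68 CPM against 2.08, 0.886, 1.16 and 1.4 CPM, and 4 were lower, such as Hist1h1a, at 6.48 and 5.93 CPM against 14.1, 10.8, 8.35 and 8.42 CPM. Both were named after their values were seen. Over all libraries Hist1h2ao had the lowest adjusted p of the members for the class, 0.0876.

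Genes of S phase were set beside the histone genes, because most clustered histone genes are active in S phase. The list also holds Mki67, a marker of cycling cells, at 1889 to 2435 CPM in tumors, so the ratio below depends in part on it. The lists below were fitted with transgene-free wild-type replicate 2 included. Over all genes tested, 30.7% were higher and 30.1% lower in tumors than in transgene-free ganglia, with a median of -0.01. In MYCN against transgene-free wild-type ganglia 1.69% of all genes were higher and 0.156% lower, with a median of -0.06. All 23 S phase genes of the list used here were higher in tumors than in transgene-free ganglia, with a median log2 fold change of 4.52, and 5 of 23 passed in MYCN against transgene-free wild-type ganglia (median 2.29). Mki67 rose 47.8-fold (adjusted p = 4.84e-05) and Mcm7, a subunit of the replicative helicase, 33.6-fold (adjusted p = 1.09e-05). Histone counts per S phase count were 3.75, 3.39, 3.79 and 3.87 in transgene-free wild-type, 4.21, 3.74 and 3.39 in transgene-free het, 3.09 and 2.91 in MYCN het, 2.59, 3.29 and 2.5 in MYCN wild-type ganglia, and 2.52, 2.20, 1.86 and 1.91 in tumors. Every MYCN ganglion was thus below every transgene-free one, wild-type replicate 2 included, and the tumors overlapped with 1 MYCN wild-type ganglion only. As a score over the members this ratio has no test, and it was chosen after the values were seen.

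Factors that make and handle histones were read as further lists. Of 23 genes for histone gene transcription and mRNA processing, 18 were higher and 2 lower in tumors than in transgene-free ganglia, with a median of 1.07. For this and the next 2 lists, the share over all genes was 30.7% higher and 30.1% lower. Srrt, a partner of the cap-binding complex, and Upf1, a helicase of RNA decay, rose 2.86-fold and 2.10-fold (adjusted p = 1.54e-05 and 6.25e-06). Slbp, which binds the stem-loop, had a log2 fold change of 2.12 (adjusted p = 6.69e-06), Npat, the activator at histone loci, 0.87 (adjusted p = 0.000514), and Lsm11, a part of the U7 particle, -1.40 (adjusted p = 0.000407), and these 3 were named after their values were seen. All 24 histone chaperone and acetyltransferase genes were higher (median 1.93), with Npm1 up 7.62-fold (adjusted p = 2.55e-06) and Ssrp1, a subunit of the FACT chaperone, 4.89-fold (adjusted p = 3.08e-06). The variant histones outside the clusters, most of whose mRNAs have poly(A) tails and are made through the cycle, had 11 of 12 higher with a median of 2.37. H2afz rose 8.35-fold, H3f3b 4.42-fold and H3f3a 2.95-fold (adjusted p = 5.17e-06, 2.87e-05 and 9.62e-05).

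RNAs that have no poly(A) tail by other routes were less uniform. Of 5 tested, 3 were higher in tumors (median 1.69), where 30.7% of all genes were higher. Rmrp was up 5.06-fold (adjusted p = 0.000399), the ribosomal precursor Rn45s up 3.22-fold (adjusted p = 0.00255) and Rpph1 at a log2 fold change of 0.29 (adjusted p = 0.422). Rn45s took 2.15 to 5.64% of counts in transgene-free ganglia and 8.57 to 12.8% in tumors. When it and the small RNA genes were left out of the fit, the same number of members (62) was higher in tumors than in transgene-free ganglia.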

How the data were processed

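Total RNA of 16 samples was sequenced after a SMARTer stranded total RNA preparation. The authors aligned reads to mm10 with STAR and SAMtools and ran RSEM, and they deposited RSEM expected counts per gene, without normalization, and TPM, scaled within each library to a fixed sum. The annotation and the strand setting are not given in the sources used here, so values of overlapping genes and of near copies are uncertain.

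Expected counts were rounded and fitted in R 4.3.3 with edgeR 4.0.16 (filterByExpr by group, TMM, quasi-likelihood test) over all 16 libraries, with the 5 groups and the library class (under or over 20000000 counts) as terms. The filter kept 16665 genes, and calls are at a Benjamini-Hochberg adjusted p under 0.05 over all of them. Folds are fitted folds. DESeq2 1.42.0 was an alternative, as were another normalization and filters, a model without the class, fits within a class, a block on the replicate number, and leaving out each library. Fits were tested on simulated data.

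The members and gene lists were chosen with earlier results of these data known. Named members are the 3 of each type with the highest mean TPM, the polyadenylated Hist1h1c, Hist1h2bc and Hist2h2be, and per comparison at most 2 higher and 2 lower called members with the largest fold among those without overlap; exceptions are marked in the text. From other lists at most 4 genes by mean TPM were named. Gene positions are from GENCODE vM21 (GRCm38). The labels give no litter or batch, so p-values measure the spread between these samples. All columns of the tables were mapped to a sample. Depth was 10692299 to 38618757 counts per library, which with 2 to 4 samples per group limits precision.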

Additional observations from a re-analysis of the deposited data

Results flagged for a closer look

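In the group of 4 transgene-free wild-type ganglia, replicate 2 stood far above the other 3 by Dixon's test, which chance meets in about 1 of 20 groups. The histone share of counts was 0.429% there and 0.108% in the next library. Of 46 such checks, on the share, the ratio to S phase counts and the 21 named members in this group and in the tumors, 17 were met, and all of them by this library and in the high direction. As these rest on 1 library and the share sums the members, they are not 17 separate findings. Its CPM, with that of the next library of the group, was 405 against 143 for Hist1h1c, 200.2 against 103 for Hist1h1e, 216 against 41.9 for Hist1h1d, 344 against 128 for Hist2h2aa1, 156 against 19.5 for Hist1h2ai, 97.6 against 10.4 for Hist1h2ap, 89.2 against 34.2 for Hist2h2bb, 88.4 against 18 for Hist1h2bk. It was 65.4 against 28 for Hist1h2bc, 75.4 against 12.7 for Hist1h3b, 67.7 against 15 for Hist1h3e, 41.1 against 8.55 for Hist1h3d, 129 against 58.9 for Hist1h4d, 37.5 against 1.23 for Hist1h2bn, 21.2 against 1.52 for Hist1h2bm, and 11.2 against 2.05 for Hist1h2an. The lymphocyte and thymocyte genes summed to 884 CPM in the same library, with Ptprc at 551, Dntt at 1.3 and Rag1 at 0.0867 CPM. The macrophage genes summed to 224 CPM and the endothelial genes to 673 CPM there. The part of all these genes' cells in the histone values was not tested. None of the checks was met among the tumors.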

How the results depend on the processing

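The count of members higher in tumors than in transgene-free ganglia was 62 under each alternative run, each library left out in turn included. Against the MYCN het ganglia it was 42 to 62, with 42 to 62 when 1 library was left out. The other counts depended on the setting. They are given here without the share of all genes called in the same run, so the changes are not read as particular to the histone genes. Tumors against MYCN wild-type ganglia (32) gave 5 without the class term, 53 with DESeq2, 0 with only the groups compared (of 64 members tested there, by edgeR) and 5 to 45 with 1 library left out. MYCN against transgene-free wild-type ganglia (4) gave 2 without the class term, 7 with upper-quartile normalization, 7 with no filter, 7 without Rn45s and small RNA genes, 43 with DESeq2, 0 with only the groups compared, 0 within each library class and 0 to 48 with 1 library left out. Runx1t1 het against wild-type in MYCN ganglia (0) gave 35 with DESeq2 and 0 to 22 with 1 library left out, and the library class (0) gave 9 with DESeq2. No value could be had within a library class that lacked one of the groups. Where fewer samples entered, fewer calls are in part by construction; otherwise the cause was not tested. No value of a named member reversed its sign while called.

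The same replicate numbers did not pair the samples: over 25 pairs of libraries that share a number, deviations from group and class means correlated from -0.46 to 0.31 (median -0.05), and 7 pairs were over 0.1. With the replicate number as a block, the counts were 62, 12, 61 and 0 in the order of tumors against transgene-free, MYCN wild-type and MYCN het ganglia and the transgene in wild-type ganglia; as a block without the class term, chosen after seeing the data, they were 62, 5, 60 and 0. The block changed no other count. All block counts stand here without the share of all genes called, so they are not read as particular to the histone genes. As a share of summed TPM in place of counts, the group means of the histone genes were 1.37% in transgene-free wild-type, 0.722% in transgene-free het, 1.46% in MYCN het and 4.52% in MYCN wild-type ganglia and 7.86% in tumors; without the 3 polyadenylated genes, the share of counts in transgene-free het ganglia was 0.0716% against 0.0865%. Few replicates limit the comparisons among ganglia, and members at under 1 CPM rest on few counts in the smaller libraries.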

Other observations

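Besides the members, 2 symbols matched but missed the count rule: Hist1h2aa and Hist1h2ba, histone genes known from testis, had at most 3 counts in any library and 3 and 6 counts in all 16 together. The testis H1 gene Hist1h1t met the rule with 59 counts in all and at most 12 in a library.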
